A study of Mus musculus with 9 samples.

Results

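The proteins of the cytosolic and of the mitochondrial ribosome were examined in mouse liver with and without miR-122. A row of the deposited table was taken as cytosolic where its symbol had the form Rpl or Rps followed by a number, or was Rpsa, Rplp0, Rplp1 or Rplp2, and as mitochondrial where its symbol began with Mrpl or Mrps and a number. Rows named or annotated as pseudogenes were left out. This gave 160 of 30519 listed genes, each with 1 transcript: 83 of the cytosolic and 77 of the mitochondrial ribosome.

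The series compares miR-122 knockout mice (KO, 1 female and 3 males) with floxed littermates that keep the microRNA (WT, 3 females and 2 males), all 6 weeks old. Whole liver was pulverised and the part that had not been UV crosslinked was sequenced as polyA RNA, 1 library per animal. The labels name neither the strain nor the Cre driver, nor which animals share a litter, and the table's column for WT replicate 3, labelled female, carries the other sex in its name. The labelled sex is used throughout, so every comparison by sex rests on that label. Whole liver holds other cells beside hepatocytes, and in such a bulk sample fewer cells of a type cannot be told apart from less RNA per cell.

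Cytosolic ribosomes translate all mRNAs made in the nucleus, and each one is built from a small and a large subunit of RNA and about equal numbers of many different proteins. Their protein mRNAs are among the most abundant of any cell, and in mammals most of them begin with a short pyrimidine stretch (the TOP motif) through which mTOR and LARP1 control their translation. The mitochondrial ribosome is a separate machine: its RNAs come from mitochondrial DNA, and all its proteins are encoded in the nucleus and imported. Among its products are core membrane subunits of the respiratory chain.

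Values are normalised signal per transcript as deposited, read here as kallisto abundances, which take transcript length into account, divided by size factors; the exact scale is not stated. The deposited columns summed to between 0.711 and 0.869 M in KO libraries and between 0.873 and 1.17 M in WT libraries, where M stands for mega. The 50 most abundant transcripts held 49.7% to 54.3% of the signal in KO livers and 54.6% to 62.2% in WT livers. Each comparison is therefore given on the deposited scale and again with every library scaled to the same total (equal totals). That step moved the median log2 fold change of all 10950 tested transcripts to 0.36, against 0.03 on the deposited scale, so a member is best read against those medians. Fold changes are KO over WT on the log2(value + 1) scale, with the standard error (SE) of the limma fit and its Benjamini-Hochberg adjusted p.

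On the deposited scale the cytosolic ribosomal proteins as a group stood at nearly the same level in KO and WT livers, while the mitochondrial ones were lower in KO livers by a small amount. Of 79 tested cytosolic transcripts, 1 was called higher and 4 lower in KO livers. Over all tested transcripts 21.4% were called higher and 14.5% lower. Of 77 mitochondrial transcripts, 5 were called higher and 21 lower, so the lower calls were a larger share than the background and the higher calls a smaller one. In either direction 5 cytosolic and 26 mitochondrial members were called, beside 35.9% of all. Among transcripts with a mean of at least 5, where 18.5% were called higher and 20.4% lower, the mitochondrial members gave 5 higher and 23 lower calls of 76. The median log2 fold change at that level was -0.04 over all transcripts, -0.03 for the cytosolic and -0.19 for the mitochondrial members. Over all tested members the median was -0.03 for the cytosolic and -0.18 for the mitochondrial group. Of the 77 mitochondrial members, 62 lay below the median of all tested transcripts. Every KO library lay below every WT library for 20 mitochondrial and 7 cytosolic transcripts, and above for 4 and 2. Over all tested transcripts 12.1% lay wholly below and 19.0% wholly above. With the authors' deposited table, q under 0.05 marked 2 mitochondrial transcripts as higher and 22 as lower in KO livers, and 0 cytosolic ones as higher and 3 as lower, beside 13.6% higher and 11.6% lower of all its transcripts with a q.

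**Figure D1:**
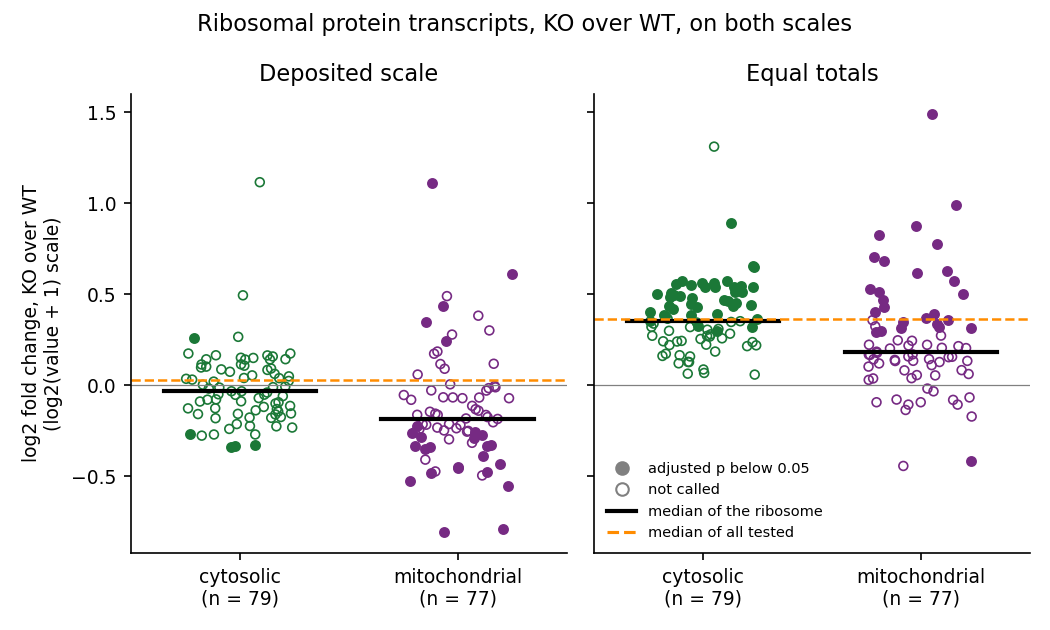
Each point is 1 transcript, with the log2 fold change of KO over WT on the vertical axis, for the 79 tested cytosolic (green) and 77 mitochondrial (purple) members; filled points passed the limma test, black bars are group medians and the dashed orange line is the median of all tested transcripts. The mitochondrial median of -0.18 lies under the dashed line at 0.03 on the deposited scale, and at 0.19 under the line at 0.36 with equal totals, while the cytosolic medians lie close to it on both.

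With equal totals the signs of these counts turned round. Higher calls came to 41 cytosolic and 26 mitochondrial transcripts, and lower calls to 0 and 1, beside 45.0% higher and 2.72% lower over all tested transcripts, or 47.7% in either direction. Every KO library lay above every WT library for 39 cytosolic and 26 mitochondrial members and below for 0 and 1, beside 37.2% and 1.63% of all. Among transcripts with a mean of at least 5, 43.9% were called higher and 3.48% lower, and of the 76 mitochondrial members among them 27 and 1. The median at that level was 0.33 over all transcripts, 0.35 for the cytosolic and 0.19 for the mitochondrial members. Over all tested transcripts with equal totals, the cytosolic median of 0.35 sat at the median of all. The mitochondrial median of 0.19 sat below it, with 59 of 77 members under it. Of the 21 mitochondrial transcripts called lower on the deposited scale, 1 (Mrps2) was called lower on both scales and 20 were not called with equal totals, while all 5 called higher were called higher on both. The higher mitochondrial calls came to 16 when WT replicate 3 or KO replicate 1 or 2 was left out, and to 17 when WT replicate 4 was. Higher calls over all tested transcripts were then 4260, 4065, 4154 and 4284 in the same order, against 4926 with all libraries. A median-ratio scaling gave 0 higher and 12 lower cytosolic calls and 3 higher and 34 lower mitochondrial calls, and upper-quartile scaling gave 2 and 6, and 5 and 25. Over all 10950 tested transcripts, median-ratio scaling called 1933 higher and 2178 lower, and upper-quartile scaling 2304 higher and 1613 lower. The direction of the group counts thus depends on the scale. A scaling factor moves both groups of a library alike, so the gap between their medians is nearly fixed across these scales by construction.

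A ratio within a library is free of that choice. Summed over all 77 members, the mitochondrial level per 100 units of the cytosolic sum was 8.74, 8.95, 8.80 and 9.34 in KO libraries 1 to 4, against 9.64, 9.47, 9.13, 9.66 and 10.6 in WT libraries 1 to 5. KO replicate 4 lay inside the WT range and the other KO libraries lay below it. The means were 8.96 ± 0.271 (SD, n = 4) in KO and 9.70 ± 0.550 (SD, n = 5) in WT livers, and the ranges overlapped. Among males alone the ratio averaged 9.03 in KO and 10.1 in WT livers, and the WT females, with WT replicate 3 among them, averaged 9.41.

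**Figure D2:**
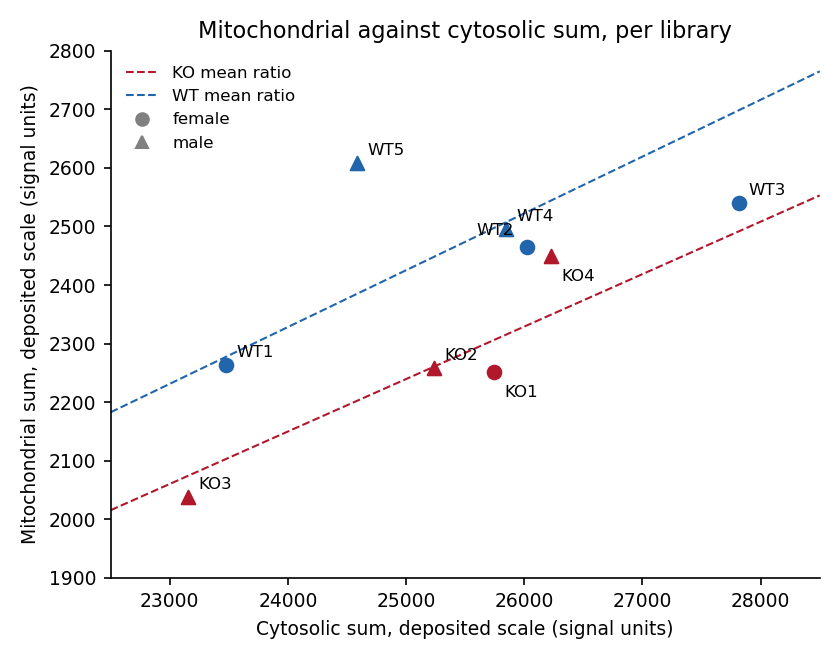
The summed mitochondrial level of each library is plotted against its summed cytosolic level on the deposited scale, KO in red and WT in blue, circles for females and triangles for males; dashed lines mark the mean ratio of each genotype and neither axis starts at 0. KO libraries 1 to 3 lie on or under the KO line, while WT replicate 5, at 10.6 mitochondrial per 100 cytosolic units, stands highest above the WT line.

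On the deposited scale the sums show the same order. Cytosolic sums were 25745, 25239, 23154 and 26222 in KO livers, against 23479, 26022, 27813, 25848 and 24583 in WT livers, and the groups overlapped throughout. Mitochondrial sums were 2251, 2258, 2037 and 2450 in KO livers, against 2263, 2464, 2540, 2496 and 2608 in WT livers, so 3 of the 4 KO libraries lay below every WT library. As a share of each library's total signal, cytosolic members made up 3.29% ± 0.229 in KO (SD, n = 4) and 2.55% ± 0.274 in WT livers (SD, n = 5). Mitochondrial members made up 0.295% ± 0.0136 in KO and 0.246% ± 0.0168 in WT livers, and neither share overlapped between the genotypes. These shares are the equal-totals sums in another unit, and both were higher in KO livers.

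**Figure D3:**
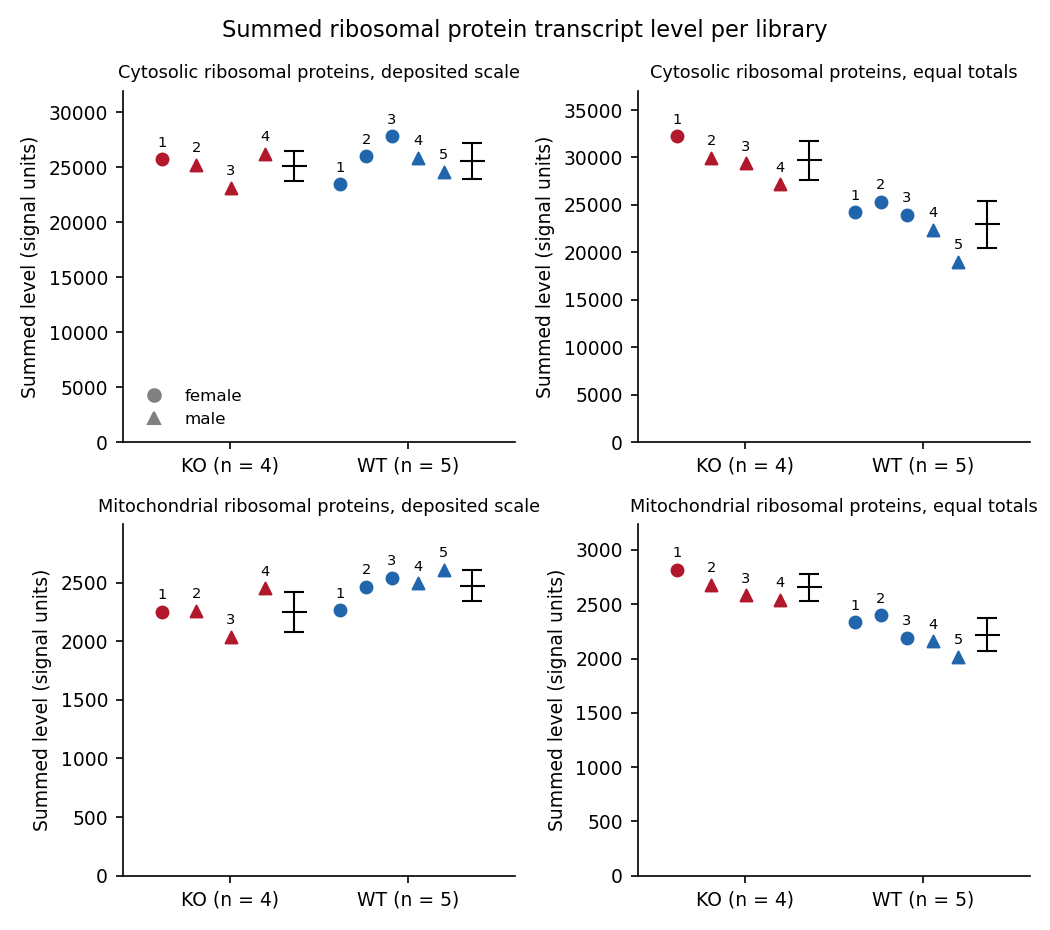
Summed level of the cytosolic (top) and mitochondrial (bottom) members in each library, on the deposited scale (left) and with equal totals (right), KO left of WT; numbers are replicates, symbols give the sex, and bars are mean ± SD. On the deposited scale the cytosolic groups overlap and 3 KO libraries lie lowest for the mitochondrial sum, whereas with equal totals every KO library lies above every WT library in both rows.

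Among cytosolic members, levels on this scale spanned 5.40 to 966, with a median of 319, and repeat WT livers differed little, with a median coefficient of variation of 9.42%. Rplp1, an acidic protein of the stalk that recruits elongation factors, had the highest mean. It stood at 990.4, 1049, 894 and 1106 in KO livers, against 817, 988, 964, 936 and 952 in WT livers, which overlapped (limma adjusted p = 0.374). Rps24, Rpl26 and Rpl41 were also among the most abundant. Rps24 was at 739, 646, 618 and 713 in KO and at 693, 690.3, 876, 719.8 and 713 in WT livers (adjusted p = 0.388), and Rpl26 averaged 659.8 ± 44.0 in KO and 699 ± 81.1 in WT (SD, n = 4 and 5). The ranges of these 3 members over the libraries overlap, so their order is not fixed by these data. Rpl41, the smallest protein of the ribosome, had 781, 764, 657 and 822 units in KO livers, against 382, 503, 498, 733 and 621 in WT livers. Its log2 fold change of 0.49 (SE 0.17) missed the threshold on the deposited scale (adjusted p = 0.051) and passed it with equal totals (0.89, adjusted p = 0.000604).

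Rps16, a small-subunit protein, was the only cytosolic member called higher on the deposited scale. It was at 319, 357, 309.5 and 329 in KO livers, against 261, 298, 282, 255 and 277 in WT livers. The genotypes did not overlap, and the log2 fold change was 0.26 (SE 0.08, limma adjusted p = 0.0273). Leaving out WT replicate 1 or 4, or KO replicate 2 or 4, removed the call, with adjusted p up to 0.0822, and the authors' deposited table gives a q of 0.212.

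The 4 lower cytosolic transcripts fell by similar amounts. Rpl13a, a large-subunit protein that is also known as part of an interferon-controlled translation silencing complex in human cells, was at 329.9, 321, 295 and 321 in KO livers, against 357, 406, 452, 406 and 389 in WT livers (log2 fold change -0.34, SE 0.08, limma adjusted p = 0.0115). Rpl23, which in human cells can bind MDM2 when ribosome assembly is disturbed, averaged 273 ± 22.8 in KO and 344 ± 33.9 in WT livers (-0.33, SE 0.10, adjusted p = 0.0229). Rpl4, a large-subunit protein that lines the exit tunnel, averaged 445 ± 21.5 in KO and 537 ± 26.6 in WT livers (-0.27, SE 0.07, adjusted p = 0.0175). These 3 did not overlap between genotypes. The listed Rpl23 transcript is annotated as a processed transcript, and that of Rpl13a is not in the annotation used here (GENCODE M21). Rps27l, a paralog of Rps27 that p53 induces in human cells, averaged 425 ± 39.4 in KO and 535 ± 56.3 in WT livers (SD, n = 4 and 5; -0.33, SE 0.11, adjusted p = 0.0356), and KO replicate 4 reached into the WT range. Only Rpl13a kept its call when any 1 library was left out. The lower cytosolic calls came to 1 when KO replicate 2 or 3 was left out. Over all tested transcripts the lower calls numbered 1292 without KO replicate 2 and 1245 without KO replicate 3, against 1589 with all libraries. The higher cytosolic calls came to 0 when WT replicate 1 or KO replicate 2 or 4 was left out and to 2 when WT replicate 5 was. Over all tested transcripts the higher calls then numbered 2151, 2013, 2055 and 2387 in the same order, against 2345 with all libraries. None of the 4 lower transcripts was called with equal totals (log2 fold changes from 0.06 to 0.13).

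**Figure D4:**
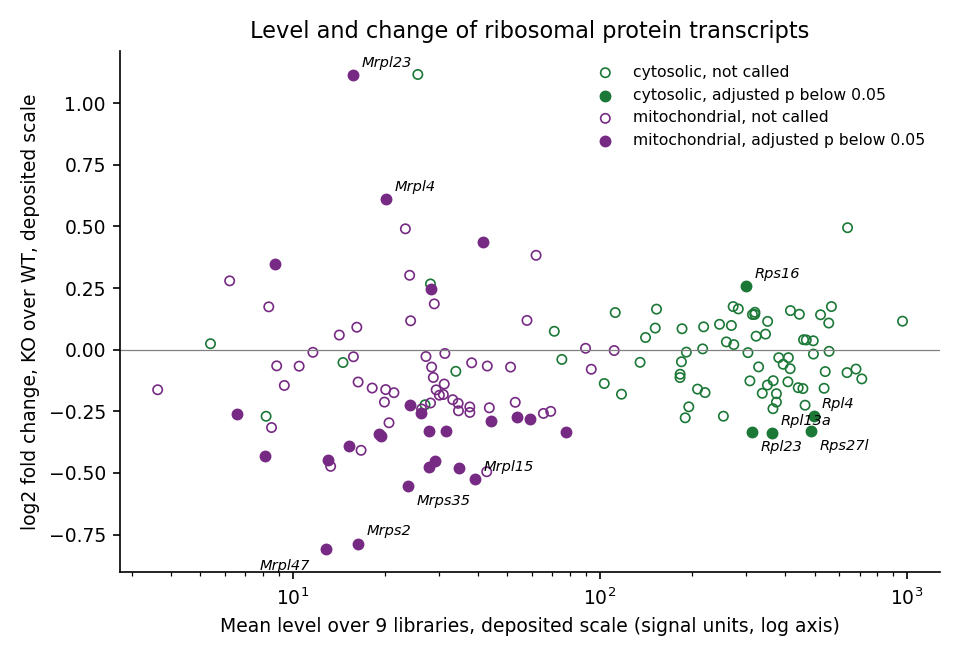
The log2 fold change of KO over WT on the deposited scale is plotted against the mean level over the 9 libraries on a log axis for all tested members; filled points passed the limma test at 0.05, and the called members of largest change are named. Cytosolic members (green) gather around their median level of 319 and close to 0, while the mitochondrial ones (purple) lie mostly at levels of 10 to 100 and below 0.

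Several cytosolic proteins have roles outside the shared work of the ribosome, and none of those that follow passed the test on the deposited scale. Rpl5 and Rpl11, which with the smallest ribosomal RNA can bind MDM2 and so stabilise p53, averaged 14.3 ± 2.08 in KO and 14.8 ± 1.77 in WT livers, and 278 ± 29.2 in KO and 259.6 ± 24.5 in WT livers. Rps6, the S6 kinase substrate, averaged 316 ± 45.6 in KO and 355 ± 23.1 in WT livers (SD, n = 4 and 5; adjusted p = 0.223). Rps19 and Rps14, whose partial loss causes anaemia in humans, averaged 205 ± 2.55 in KO and 232 ± 23.1 in WT livers, and 337 ± 31.8 in KO and 305 ± 25.2 in WT livers. Rps3, a small-subunit protein that also has a part in DNA repair, averaged 169 ± 22.3 in KO and 206 ± 27.6 in WT livers, and Rpsa, also known as the laminin receptor, 195 ± 8.94 in KO and 218 ± 13.7 in WT livers. Rps25, needed by several viral entry sites, was at 425 ± 18.1 in KO and 498 ± 42.4 in WT livers (adjusted p = 0.0602), with every KO library below every WT library. The other stalk proteins, Rplp0 and Rplp2, averaged 338 ± 12.4 in KO and 305 ± 22.6 in WT, and 162 ± 16.1 in KO and 146 ± 26.2 in WT livers (SD, n = 4 and 5). Rpl38, which shapes translation of Hox mRNAs in mouse embryos, averaged 329 ± 47.3 in KO and 317 ± 48.4 in WT livers. With equal totals Rplp0, Rplp2, Rps14, Rpl11 and Rpl38 passed as higher (log2 fold changes 0.45 to 0.56, limma adjusted p = 0.000815 to 0.0335), and the other 6 of these members did not.

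Paralogs restricted to other tissues stayed near or at 0. Rpl3l, the heart and muscle form of Rpl3, was at 0, 0, 0.0675 and 0 in KO and at 0.0646, 0, 0.0717, 0.209 and 0 in WT livers, and Rpl39l, a testis form of Rpl39, reached 0.231 in KO replicate 2 and 0.281 in WT replicate 2. Rpl10l, the testis form of Rpl10, was listed at 0 in all 9 libraries. Rps27 was also listed at 0 in all 9, although all cells need it, while the near-identical Rps27rt, which the symbol rule does not take, was at 949, 984, 877 and 974 in KO and at 879, 935, 1051, 911 and 757 in WT livers. These 4 members were not tested. Rpl22l1, the paralog that Rpl22 represses in mouse, averaged 176 ± 23.2 in KO and 191 ± 65.9 in WT livers (SD, n = 4 and 5), and Rpl22 349 ± 34.8 in KO and 397 ± 52.9 in WT. Rpl7l1 averaged 24.5 ± 0.981 in KO and 28.9 ± 3.09 in WT livers, and its paralog Rpl7 225 ± 14.9 in KO and 274 ± 40.7 in WT. Rpl39 averaged 555 ± 60.2 in KO and 559 ± 71.8 in WT livers, and Rpl10 32.8 ± 6.87 in KO and 34.9 ± 6.86 in WT, and none of these 6 was called on the deposited scale.

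Cytosolic ribosomal protein genes have many near-identical copies, and a few rows varied widely between libraries of one genotype. Rps12 was at 0.765, 63.9, 58.3 and 0.0491 in KO livers, against 8.94, 97.6, 0.351, 0.000291 and 0.0310 in WT livers, so both genotypes held libraries near 0 and libraries above 50. The annotated processed pseudogene Rps12l1 was at 0, 0, 0.0200 and 8.74 in KO livers, against 60.4, 59.0, 112, 43.3 and 25.3 in WT livers. WT replicate 2 alone held 196.8 units of the pseudogene Rps3a2 and 81.4 of Rps3a3, where the 4 KO libraries reached at most 0.448 and 0.669. Rpl3 ranged from 69.4 to 264.3 in KO livers and from 177 to 268 in WT livers. In the authors' deposited table the technical variance passed 0.1 for Rpl12, Rpl27 and Rps12 and for the mitochondrial Mrpl19 and Mrpl23.

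To show the start of these genes, the bases 15 before to 15 after the annotated start were read from the RefSeq promoter table (GRCm38.p6) with the longest pyrimidine run near the start in capitals as far as it falls inside the window. Shown are the members called higher, the up to 8 largest lower calls of each ribosome, the cytosolic members of highest level and Mrpl12, as far as the table holds them.
Rpl41 (chr10:128549154-128549183, minus strand): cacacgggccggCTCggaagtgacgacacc
Rps24 (chr14:24490663-24490692, plus strand): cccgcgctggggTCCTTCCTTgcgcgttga
Rpl26 (chr11:68901551-68901580, plus strand): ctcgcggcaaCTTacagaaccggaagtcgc
Rps16 (chr7:28350674-28350703, plus strand): cccgCTTCTgtcgtgacgtagcactcaatg
Rpl13a (chr7:45128731-45128760, minus strand): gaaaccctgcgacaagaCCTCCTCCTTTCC
Rpl23 (chr11:97782425-97782454, minus strand): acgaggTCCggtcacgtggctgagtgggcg
Rps27l (chr9:66946071-66946100, plus strand): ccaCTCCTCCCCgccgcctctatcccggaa
Rpl4 (chr9:64173372-64173401, plus strand): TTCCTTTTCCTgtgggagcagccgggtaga
Mrpl23 (chr7:142533017-142533046, plus strand): cggggttgggggtggggtggggTTTgcggg
Mrps25 (chr6:92184009-92184038, minus strand): gaagtgCCTCCCaagattcccggagccgcg
Mrpl21 (chr19:3283027-3283056, plus strand): cacaaggttcgcgctgCTTCCgcttccggt
Mrpl47 (chr3:32736741-32736770, minus strand): gacaccgacactgtgggTCTCCattagaaa
Mrps2 (chr2:28468051-28468080, plus strand): tctgccgggcaggaagagTCTCTgcaggat
Mrpl41 (chr2:24975084-24975113, minus strand): gggcattgggcgCCCTggtgaccagtcggc
Mrps31 (chr8:22411325-22411354, plus strand): cggaaTCCaaaaggagcggaacagtgcagg
Mrps22 (chr9:98601665-98601694, minus strand): cgagccggaagttgCTCTatcgattccggc
Mrps27 (chr13:99344771-99344800, plus strand): ccacgcccgCCTTCCacttggtgcgctcca
Mrpl12 (chr11:120484622-120484651, plus strand): agctcgCCTCCTCCCggatagagcgtcgct
The runs are 3 to 14 bases long in these cytosolic and 3 to 9 in these mitochondrial members. Over all members that matched the table the median run was 6 bases in the cytosolic group (range 2 to 21) and 5 in the mitochondrial group (1 to 10), so the ranges overlap.

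Of the 160 members, 131 matched this table, 63 cytosolic and 68 mitochondrial. A run of at least 8 pyrimidines touching the 10 bases on either side of the start was held by 42.9% of the cytosolic, 13.2% of the mitochondrial and 13.5% of all 27025 promoters. A C at the annotated start followed by at least 4 pyrimidines was found in 12 cytosolic and 0 mitochondrial promoters and in 2.49% of all. At the first base of the listed transcript (GENCODE M21) it was in 9 of 82 cytosolic and 4 of 77 mitochondrial members. There it was in 2.27% of 10861 tested transcripts, so these counts depend on which start is annotated. The promoter start equalled the RefSeq gene start for 72.9% of 13571 plus-strand genes compared. The word CCGGAAG, the core bound by GABP and other ETS factors, was found on either strand of the window of 250 bases before to 50 after the start in 39.7% of the cytosolic and 35.3% of the mitochondrial promoters, against 19.1% of promoters of tested genes and 9.12% of all. AAGATGG, the YY1 core, was in 14.3% and 19.1% (7.76% of tested genes), and GCGCATG, one arm of the NRF1 site, in 11.1% and 11.8% (7.40%). TATAAA was in 9.52% and 5.88% (7.53%). These matches are letters in a window and not binding sites.

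Few members carry a match to the seed of miR-122. The 3' UTR of the listed transcript (GENCODE M21) was searched on the sense strand for CACTCC, which pairs with the seed, and for its extensions by 1 base on either side. Of 75 cytosolic transcripts with a 3' UTR, 0 held it, and of 67 mitochondrial ones 4 did, against 24.8% of 9983 tested transcripts. The UTRs of the members are short, with medians of 64 bases in the cytosolic and 284 in the mitochondrial group, against 880 in all tested transcripts. Per 1000 bases of UTR, 0.0993 mitochondrial transcripts held a match, against 0.184 of all tested transcripts. Each transcript counts once there, so repeat matches within a UTR are not in these rates. For each of the 4, 1 match is shown in capitals with 10 bases on either side.
Mrps2 (chromosome 2): tctgtgtcccCACTCCctgtcctcag
Mrpl12 (chromosome 11): caccccgattCACTCCcagctgctgt
Mrpl3 (chromosome 9): gtgttaaaatACACTCCcaaggaagac
Mrps11 (chromosome 7): ccttggggaaACACTCCtctcctcgca
Mrps2 and Mrpl12, which hold only the 6-base match, were called lower in KO livers. Mrpl3 and Mrps11, which have the 7-base match, were not called on the deposited scale (log2 fold changes 0.09 and 0.17, limma adjusted p = 0.29 and 0.546), and the listed Mrpl3 transcript is annotated as a target of nonsense-mediated decay.

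The mitochondrial members covered levels from 3.63 to 111, with a median of 27.8. The most abundant were large-subunit proteins and the small-subunit protein Mrps18c. Mrpl52 was at 114, 116, 99.5 and 115 in KO livers, against 98.6, 108, 119.7, 114 and 116 in WT livers, Mrpl42 averaged 91.1 ± 11.3 in KO and 95.9 ± 5.90 in WT livers, and Mrpl33 89.9 ± 7.60 in KO and 89.7 ± 9.39 in WT livers (SD, n = 4 and 5). None of the 3 was called on the deposited scale. Mrpl12, the fourth, was: the stalk protein that in human cells also binds the mitochondrial RNA polymerase was at 63.2, 72.4, 66.1 and 69.2 in KO livers, against 74.3, 96.8, 86.0, 85.3 and 86.2 in WT livers. No KO value reached the WT range, and the log2 fold change was -0.33 (SE 0.09, limma adjusted p = 0.0137) on the deposited scale and 0.06 with equal totals.

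Both mitochondrial subunits took part in the lower calls on the deposited scale. Among 29 small-subunit transcripts 1 was called higher and 8 lower, and among 48 large-subunit transcripts 4 higher and 13 lower, with medians of -0.22 and -0.17. Over all tested transcripts 21.4% were called higher and 14.5% lower on that scale. With equal totals the small subunit had 9 higher and 1 lower calls and the large subunit 17 and 0, beside 45.0% and 2.72% of all. The annotation calls the listed transcript protein coding for 65 of the 77. On the deposited scale these gave 3 higher and 18 lower calls and a median of -0.18, close to the values over all 77. Of the 21 lower calls, 12 held when any 1 library was left out and 18 with sex as a covariate. Without KO replicate 3 there were 12 lower calls, and higher calls numbered 3 when WT replicate 1, 2 or 3 or KO replicate 1 or 4 was left out. Over all tested transcripts there were 1245 lower calls without KO replicate 3, against 1589 with all libraries. In the fits with 3 higher calls, those over all tested transcripts ranged from 2055 to 2199, against 2345 with all libraries.

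Mrps2, a small-subunit protein placed early in assembly, gave the smallest adjusted p of the mitochondrial group. It was at 9.82, 12.3, 11.3 and 12.04 in KO livers, against 18.6, 19.3, 19.3, 21.4 and 23.1 in WT livers. The lowest WT library stood well above the highest KO library, and the KO mean was 0.559 of the WT mean (log2 fold change -0.79, SE 0.09, limma adjusted p = 0.000194). With equal totals the change was -0.41 (SE 0.10, adjusted p = 0.00529), the only lower call of either ribosome on that scale. Without WT replicate 5, 3 mitochondrial lower calls were made there. Lower calls over all tested transcripts then numbered 417, against 298 with all libraries. The authors' deposited table gives a q of 2.17e-13.

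Mrpl47, a large-subunit protein near the tunnel exit, had the largest decrease. It was at 7.33, 9.54, 8.71 and 9.24 in KO livers, against 16.8, 18.8, 19.5, 13.4 and 12.3 in WT livers. The 2 WT males were nearest to the KO values, and all 5 lay above them (-0.81, SE 0.14, adjusted p = 0.00208). The row is a processed transcript without a coding annotation, so the coding isoform of the gene was not measured by it. With equal totals the adjusted p was 0.0711.

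Other lower small-subunit transcripts were Mrps35, Mrps31, Mrps22 and Mrps27. Mrps35, a subunit specific to mitochondrial ribosomes, was at 18.1, 18.2, 17.2 and 21.1 in KO livers, against 25.4, 28.7, 31.7, 28.5 and 24.8 in WT livers (-0.55, SE 0.09, adjusted p = 0.00151). Mrps31 averaged 22.6 ± 2.66 in KO and 31.9 ± 3.14 in WT livers (-0.48, SE 0.10, adjusted p = 0.00471), and Mrps27, which belongs to the pentatricopeptide repeat proteins, 10.6 ± 1.54 in KO and 14.9 ± 1.89 in WT livers (-0.45, SE 0.11, adjusted p = 0.0134). For these 3 the genotypes did not overlap. Mrps22, mutated in human respiratory chain disease, was at 30.7, 20.96, 20.7 and 23.6 in KO and at 27.5, 29.5, 39.2, 30.5 and 38.9 in WT livers (-0.45, SE 0.15, adjusted p = 0.0391). KO replicate 1 overlapped the WT range, and leaving out any of WT replicates 3, 4 and 5 or KO replicates 2, 3 and 4 removed the call, with adjusted p up to 0.107.

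In the large subunit, Mrpl15 and Mrpl41 fell most after Mrpl47. Mrpl15 was at 31.0, 31.8, 28.5 and 33.5 in KO livers, against 38.7, 54.3, 41.6, 49.0 and 44.2 in WT livers (-0.52, SE 0.10, adjusted p = 0.00375). Its row too is a transcript without a coding annotation. Mrpl41, which in human cells has been tied to growth arrest and cell death, was at 29.9, 27.2, 25.6 and 30.1 in KO livers, against 36.6, 36.5, 39.2, 38.04 and 49.1 in WT livers (-0.48, SE 0.10, adjusted p = 0.00508), with WT replicate 5 far above the rest. Neither gene overlapped between the genotypes. The remaining 13 lower transcripts were Mrpl1, Mrpl9, Mrpl10, Mrpl12, Mrpl17, Mrpl32, Mrpl36, Mrpl39, Mrpl40, Mrpl53, Mrps7, Mrps9 and Mrps23, with log2 fold changes from -0.43 to -0.22.

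**Figure D5:**
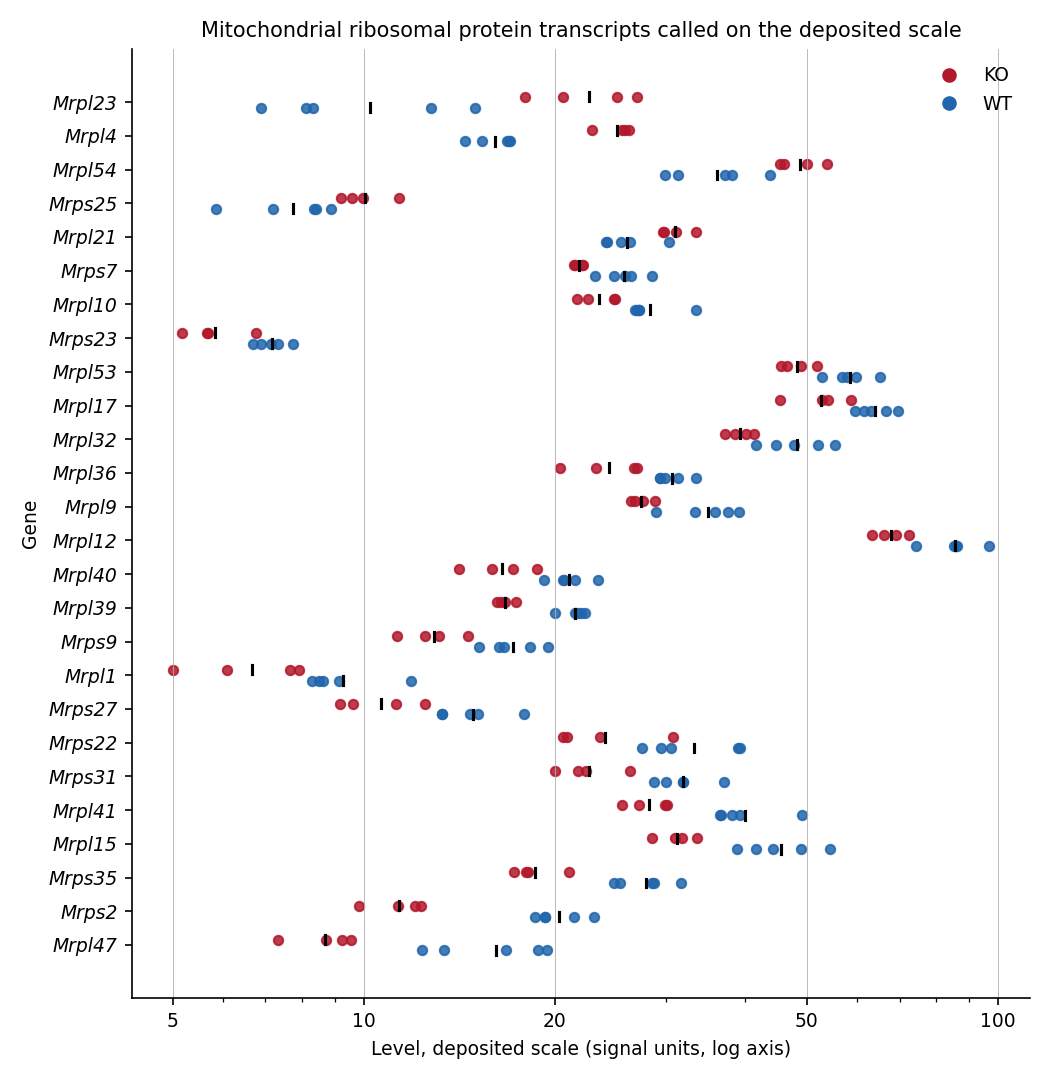
Each row is 1 of the 26 mitochondrial transcripts called on the deposited scale, in order of its log2 fold change, with 1 point per library on a log axis, KO (red) drawn above WT (blue) and black ticks at the means. The KO points lie to the right of the WT points in the upper 5 rows, with an overlap for Mrpl21, and mostly to the left in the other 21, where Mrps22 and Mrps23 overlap.

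The 5 higher mitochondrial transcripts were called on both scales. Mrpl4, a large-subunit protein, was at 22.9, 26.2, 25.5 and 25.8 in KO livers, against 15.4, 17.0, 14.4, 17.0 and 16.8 in WT livers. All KO libraries lay far above the WT range, a 1.56-fold difference of means (log2 fold change 0.61, SE 0.08, limma adjusted p = 0.00029, with equal totals 0.99). Mrpl54 was at 46.0, 53.9, 45.4 and 49.98 in KO livers, against 29.9, 37.2, 38.1, 31.3 and 43.7 in WT livers (0.44, SE 0.12, adjusted p = 0.0159), again without overlap. Both calls held when any 1 library was left out.

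Mrpl23 had the largest increase, with 20.6, 17.9, 25.1 and 27.0 in KO livers, against 8.31, 6.89, 12.8, 8.11 and 15 in WT livers (1.11, SE 0.22, adjusted p = 0.00356). The genotypes did not overlap, but the row is a processed transcript of high technical variance, and the authors' deposited table gives a q of 0.325. Mrps25, listed by a retained-intron transcript, and Mrpl21 rose by 0.35 (SE 0.12) and 0.24 (SE 0.08), with adjusted p = 0.0438 and 0.0442. The Mrps25 call was lost in 7 and the Mrpl21 call in 8 of the 9 fits that leave out a library: any KO library or WT replicate 1, 2 or 3 for both, and WT replicate 4 for Mrpl21.

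Further mitochondrial members with a known role were not called on the deposited scale, apart from Mrpl10. Mrpl10, which with Mrpl12 forms the stalk, averaged 23.5 ± 1.595 in KO and 28.3 ± 2.87 in WT livers (-0.26, SE 0.09, adjusted p = 0.0427), a call that leaving out any 1 library removed (adjusted p from 0.0518 to 0.108). Mrpl11, its neighbour at the stalk base, averaged 8.81 ± 0.671 in KO and 9.85 ± 0.727 in WT livers. Mrps12, part of the decoding centre, averaged 30.9 ± 4.92 in KO and 27.3 ± 5.88 in WT livers, and Mrps16, mutated in a human mitochondrial disease, 49.8 ± 4.72 in KO and 52.3 ± 3.06 in WT livers (SD, n = 4 and 5). The 3 homologs of bacterial S18 differed: Mrps18a averaged 26.8 ± 3.69 in KO and 21.8 ± 4.78 in WT, Mrps18b 27.4 ± 3.45 in KO and 30.8 ± 3.49 in WT, and Mrps18c 62.7 ± 11.0 in KO and 74.3 ± 8.68 in WT livers. Mrps36, which also has a role in the 2-oxoglutarate dehydrogenase complex, was at 29.7, 20.9, 25.4 and 35.6 in KO and at 13.8, 19.8, 17.4, 21.05 and 25.8 in WT livers (0.49, SE 0.19, adjusted p = 0.07). Mrps5 and Mrps34, both of the small subunit, averaged 10.9 ± 3.29 in KO and 15.2 ± 3.05 in WT livers, and 23.8 ± 2.50 in KO and 28.3 ± 3.31 in WT livers. Mrpl44, mutated in human cardiomyopathy, averaged 15.6 ± 1.32 in KO and 15.9 ± 1.06 in WT livers.

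Genes that serve the mitochondrial ribosome are read against the same background, 21.4% higher and 14.5% lower on the deposited scale and 45.0% and 2.72% with equal totals. Of 15 tested translation factors, 0 were called higher and 8 lower (median -0.37), and with equal totals 0 higher and 2 lower, Mtif3 and Guf1. Mtif3, the initiation factor that splits the subunits, was at 11.2, 8.88, 7.03 and 9.11 in KO livers, against 14.5, 14.9, 14.5, 17.4 and 17.5 in WT livers (-0.75, SE 0.12, limma adjusted p = 0.00135). Guf1, a back-translocating factor, averaged 1.46 ± 0.490 in KO and 3.59 ± 0.513 in WT livers (-0.91, SE 0.15, adjusted p = 0.00118). Taco1, an activator of Cox1 translation, averaged 11.0 ± 1.34 in KO and 17.9 ± 1.78 in WT livers (-0.65, SE 0.10, adjusted p = 0.00084). Lrpprc, which keeps mitochondrial mRNAs stable, averaged 26.6 ± 0.614 in KO and 38.4 ± 2.84 in WT livers (-0.51, SE 0.07, adjusted p = 0.000553). The KO values of these 4 genes lay below every WT value.

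Of 27 assembly factors, 3 were called higher and 9 lower (median -0.19), and with equal totals 7 higher and 0 lower. Tfb1m, which methylates the small ribosomal RNA, averaged 6.99 ± 0.660 in KO and 10.9 ± 0.336 in WT livers (-0.58, SE 0.07, adjusted p = 0.000334), and Tfb2m, a mitochondrial transcription factor, 12.9 ± 1.13 in KO and 20.97 ± 2.74 in WT livers (-0.66, SE 0.10, adjusted p = 0.00106). Afg3l2, a protease that matures Mrpl32, averaged 24.6 ± 1.83 in KO and 33.8 ± 1.48 in WT livers (-0.45, SE 0.07, adjusted p = 0.00122). Of 16 tested mitochondrial aminoacyl-tRNA synthetases, which charge the tRNAs, 2 were called higher and 2 lower, and with equal totals 5 and 0. On the deposited scale Yars2 was at 11.0 ± 0.346 in KO and 15.6 ± 1.11 in WT livers and Rars2 at 13.03 ± 0.505 in KO and 9.53 ± 1.35 in WT livers. Ribosomal proteins with other kinds of names gave 1 lower call among 5, and with equal totals 2 higher and 0 lower ones. The lower call on the deposited scale was Ptcd3, a small-subunit protein at 15.7 ± 1.59 in KO and 23.9 ± 1.44 in WT livers (-0.58, SE 0.08, adjusted p = 0.000664), while Dap3, Chchd1, Aurkaip1 and Gadd45gip1 were not called on that scale.

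On the cytosolic side, mRNAs that share the pyrimidine start did not move as one. The background for the lists that follow is again 21.4% higher and 14.5% lower, and 45.0% and 2.72% with equal totals. Of 18 elongation factors and other TOP mRNAs, 2 were called higher and 8 lower (median -0.21), and with equal totals 5 higher and 0 lower. Eif4b, an initiation factor, averaged 68.1 ± 3.75 in KO and 89.0 ± 7.81 in WT livers (-0.38, SE 0.08, limma adjusted p = 0.00652), whereas Eif3k, a subunit of another initiation factor, averaged 88.5 ± 4.70 in KO and 63.6 ± 3.97 in WT livers (0.47, SE 0.07, adjusted p = 0.000921). Hnrnpa1, an RNA-binding protein, averaged 52.5 ± 7.18 in KO and 36.1 ± 3.16 in WT livers (0.52, SE 0.11, adjusted p = 0.00467). Of 72 tested ribosome biogenesis genes, 3 were called higher and 11 lower (median -0.14), and with equal totals 19 and 2. Nmd3, the export adaptor of the large subunit, averaged 13.6 ± 1.29 in KO and 25.6 ± 3.75 in WT livers (-0.86, SE 0.12, adjusted p = 0.000556). Nop10, part of the particle that makes pseudouridine in ribosomal RNA, averaged 36.6 ± 4.55 in KO and 59.6 ± 7.64 in WT livers (-0.69, SE 0.12, adjusted p = 0.00153). Eif6, which keeps the large subunit from joining too early, averaged 39.0 ± 4.09 in KO and 23.7 ± 3.82 in WT livers (0.70, SE 0.12, adjusted p = 0.00206), and Polr1a, the largest subunit of the polymerase that makes ribosomal RNA, 4.77 ± 0.447 in KO and 2.55 ± 0.461 in WT livers (0.71, SE 0.11, adjusted p = 0.00109).

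Of 21 tested genes of mTOR signalling and translation control, 2 were called higher and 4 lower, and with equal totals 5 higher and 0 lower, beside the same background. Akt2, a kinase upstream of mTOR, averaged 16.7 ± 1.98 in KO and 22.8 ± 0.994 in WT livers (-0.44, SE 0.08, adjusted p = 0.00329). Eif4ebp1 and Eif4ebp2, which hold back cap binding until mTOR phosphorylates them, went opposite ways: Eif4ebp1 averaged 42.1 ± 6.77 in KO and 30.6 ± 2.84 in WT livers (0.44, SE 0.12, adjusted p = 0.0194), and Eif4ebp2 27.5 ± 4.92 in KO and 42.6 ± 3.45 in WT livers (-0.63, SE 0.13, adjusted p = 0.00409). The Eif4ebp1 call was lost without KO replicate 2, 3 or 4. Among 20 cytosolic aminoacyl-tRNA synthetases 6 were called higher and 4 lower, and with equal totals 13 and 1. On the deposited scale Wars averaged 6.71 ± 0.298 in KO and 2.81 ± 0.557 in WT livers, Sars 35.99 ± 2.13 in KO and 21.6 ± 2.09 in WT, and Tars 37.3 ± 4.01 in KO and 73.9 ± 12.1 in WT. Rps27a, a member made as a fusion with ubiquitin, averaged 491 ± 36.6 in KO and 499 ± 67.4 in WT livers.

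Markers of several other liver cell types moved with genotype in the same libraries. On the deposited scale 21.4% of all tested transcripts were called higher and 14.5% lower. Hepatocyte markers gave 1 higher and 1 lower call of 6 on that scale. All 6 tested markers of cholangiocytes and progenitors were called higher, with a summed level of 578 to 954 in KO and 34.9 to 61.7 in WT livers, and so were 6 of 6 macrophage markers (311 to 327 in KO, 152 to 184 in WT), 6 of 6 stellate cell markers (69.2 to 88.6 in KO, 15.9 to 22.6 in WT) and 4 of 4 markers of dividing cells (11.1 to 37.4 in KO, 3.83 to 11.7 in WT). Of the others, 2 of 2 tested neutrophil (54.1 to 120.1 in KO, 11.2 to 59.4 in WT), 1 of 1 lymphocyte (6.403 to 11.5 in KO, 2.23 to 5.99 in WT), 3 of 5 erythroid (1614 to 3023 in KO, 1140 to 1856 in WT) and 1 of 4 endothelial markers (19.9 to 25.3 in KO, 20.5 to 26.3 in WT) were called higher. With equal totals, where 45.0% of all were called higher and 2.72% lower, hepatocyte markers gave 1 higher and 0 lower calls. Erythroid markers gave 4 higher calls of 5 there, and the other lists kept their counts. No marker of these lists was at 0 in all libraries, and the part of these cells in the values of the ribosomal proteins was not tested.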

How the data were processed

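Polyadenylated RNA from 9 livers (4 KO, 5 WT) was quantified with kallisto and compared with sleuth, per the submitters' processing notes (versions not stated there). The deposited library columns hold normalised signal, taken here as kallisto abundances per effective length divided by size factors; the exact scale is not stated, and the columns do not sum to a fixed total. The authors' comparison gives WT minus KO on a natural log scale, turned round here, with a p-value and q-value, the mean natural log of estimated reads (medians 2561 per library for cytosolic and 364 for mitochondrial members) and a technical variance, used as a deposited score.

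The authors list 1 transcript per gene. Transcripts whose 9 libraries average 1 or more (10950 of 30519) were tested with limma 3.58.1 in R 4.3.3 on log2(value + 1) with a mean-variance trend and Benjamini-Hochberg adjustment over all of them, called at 0.05. The same fit was run after scaling each library to the mean total. Sums, ratios and medians over members have no test. The labels do not say more of how animals were sampled, so p-values measure the spread between these libraries. No 2 libraries held identical values (highest correlation 0.981).

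Members and lists were chosen with earlier results of these data known. Of the symbol matches, 5 mitochondrial rows named as pseudogenes and 1 repeated Mrps23 row were left out, and 5 cytosolic rows annotated as pseudogenes (Rps12l1, Rps12l2, Rps3a2, Rps3a3, Rps4l) were set aside after their values were seen. Named members are the 8 largest changes in each direction among called members, the 5 of highest mean, and members picked by role; some genes that this rule names are not reported here. Pseudogenes, start windows, 3' UTRs and coordinates use GENCODE M21 and RefSeq tables of GRCm38.p6. The fit was tested on simulated data.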

Additional observations from a re-analysis of the deposited data

Results flagged for a closer look

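Of 200 groups of libraries examined for 97 named genes and the summed levels and their ratio, 15 held 1 library that stood far from the rest of its genotype. Chance flags about 1 in 20 such groups.

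Among cytosolic members, Rps24 was at 876 in WT replicate 3, where the other WT livers ranged from 690.3 to 719.8, and Rpl3 was at 268 in WT replicate 1, where the others ranged from 177 to 188. Rpl39l was at 0.231 in KO replicate 2 and Rpl3l at 0.0675 in KO replicate 3, and the other KO livers were at 0 for both.

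WT replicate 5 was the highest WT liver for 4 mitochondrial members: Mrpl41 was at 49.1 (others 36.5 to 39.2), Mrpl10 at 33.4 (26.8 to 27.2), Mrps18a at 30.2 (18.7 to 20.6) and Mrps18b at 37.0 (29.0 to 29.5). Mrpl52 was lowest in KO replicate 3, at 99.5 (114 to 116 in the other KO livers), and Mrps12 was highest in KO replicate 2, at 38.2 (27.9 to 29.3).

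Among related genes, Nop10 was at 43.4 in KO replicate 4 (33.6 to 34.8), Eif4ebp1 at 32.02 in KO replicate 1 (44.0 to 46.3), Tars at 31.3 in KO replicate 2 (38.7 to 40.2), Dars at 35.6 in KO replicate 3 (38.8 to 39.3) and Eif4e at 31.3 in WT replicate 5 (22.9 to 25.1).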

How the results depend on the processing

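The direction of the counts depends on the scale, while a scaling factor moves both groups of a library alike. Values are given as cytosolic higher and lower calls with the median, then the same for mitochondrial members. Against 1 and 4 (-0.03) and 5 and 21 (-0.18) on the deposited scale, and 41 and 0 (0.35) and 26 and 1 (0.19) with equal totals, median-ratio scaling gave 0 and 12 (-0.12) and 3 and 34 (-0.27), and upper-quartile scaling 2 and 6 (-0.036) and 5 and 25 (-0.19). Equal totals without the ribosomal protein rows gave 41 and 0 (0.37) and 27 and 1 (0.20). Equal totals without the 50 most abundant transcripts, an alternative chosen after seeing the data, gave 24 and 0 (0.13) and 10 and 7 (-0.039). Over all 10950 tested transcripts, higher and lower calls numbered 1933 and 2178 with median-ratio and 2304 and 1613 with upper-quartile scaling. They numbered 5009 and 289 without the ribosomal protein rows, and 3375 and 843 without the 50 most abundant. The summed levels, at log2 differences of -0.03 (cytosolic) and -0.14 (mitochondrial) as deposited, became 0.37 and 0.26 with equal totals, 0.38 and 0.27 without the ribosomal protein rows, and 0.14 and 0.029 without the 50 most abundant, and the cytosolic one -0.12 with median-ratio scaling. The log2 ratio of the sums was -0.11 and moved under none of the alternatives by more than the spread between libraries.

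On the deposited scale, males alone gave 0 and 1 cytosolic and 1 and 7 mitochondrial calls, a threshold of 0.01 gave 0 and 0, and 2 and 7, and a minimum change of 1.5-fold 0 and 0, and 2 and 2. Over all 10950 tested transcripts, higher and lower calls numbered 1408 and 808 in males alone, 1504 and 858 at 0.01, and 1658 and 745 at 1.5-fold. Higher mitochondrial calls numbered 3 with sex as a covariate, beside 2194 of all. The q-values of the authors' deposited table gave 0 higher cytosolic and 2 higher mitochondrial calls, a mean of at least 5 gave 2 higher cytosolic calls, and adding the annotated pseudogenes (chosen after seeing the data) 2 higher on the deposited scale and 1 lower with equal totals. With equal totals, males alone gave medians of 0.49 and 0.28 and 14 higher and 0 lower mitochondrial calls, 0.01 gave 25 higher cytosolic and 14 higher mitochondrial calls, and 1.5-fold gave 3 higher cytosolic and 10 higher and 0 lower mitochondrial calls. Over all tested transcripts the higher and lower calls there were 3966 and 181 in males alone, 3245 and 123 at 0.01, and 3651 and 188 at 1.5-fold. All called transcripts numbered 3934 on the deposited scale, 2216 in males alone, 2589 at a mean of at least 5, 2362 at 0.01 and 2403 at 1.5-fold, and 5224 with equal totals, 3158 at a mean of at least 5 and 3368 at 0.01. The cause of these shifts was not tested, apart from the fewer samples or transcripts that some settings use by construction.

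Same-numbered KO and WT libraries had deviations correlated at 0.229, 0.0823, -0.184 and 0.113. Some of these pairs join a male with a female, and litter membership is unknown here. The correlations therefore cannot decide whether equal numbers mark paired animals. With the replicate number as a block, the deposited scale gave 1 higher and 0 lower cytosolic and 7 higher and 12 lower mitochondrial calls. Over all tested transcripts it gave 2142 higher and 1415 lower calls. With equal totals that block gave 37 higher and 0 lower cytosolic and 20 higher and 2 lower mitochondrial calls. Over all tested transcripts there were then 4396 higher and 456 lower calls.

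Leaving out each library in turn gave 0 to 2 higher and 1 to 5 lower cytosolic calls (median -0.06 to 0.01) and 3 to 7 higher and 12 to 23 lower mitochondrial calls (-0.23 to -0.16) on the deposited scale. With equal totals it gave 29 to 41 and 0 to 0 (0.28 to 0.41), and 16 to 27 and 1 to 3 (0.16 to 0.22). All calls ranged from 3170 to 3996 and from 4129 to 5486, the summed levels from -0.06 to 0.01 and from -0.18 to -0.09, and their ratio from -0.14 to -0.08.

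Between the deposited scale and equal totals the sign differed for 45 cytosolic and 48 mitochondrial members. With equal totals computed without the ribosomal protein rows, these 20 named genes with a call in either fit had the opposite sign to their value as reported: Rpl13a 0.071, Rpl23 0.076, Rps27l 0.080, Rpl4 0.14, Rpl39 0.40, Rps27a 0.39, Mrpl52 0.40, Mrpl42 0.33, Mrpl12 0.074, Mrpl10 0.14, Mrpl44 0.36, Mrps16 0.33, Eif4b 0.027, Eif3e 0.068, Eif4e 0.066, Gtpbp10 0.022, Dars 0.016, Rpl36al 0.27, Gadd45gip1 0.28 and Aurkaip1 0.32. Of the other values of single genes, 1756 stayed on their side of the threshold, 129 no longer passed it and 44 newly passed it. Short 3' UTRs and low estimated reads limit the seed counts and the scarcest mitochondrial transcripts.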
